A study of Mus musculus with 4 samples.

Results

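The 39 genes described here drive cell division. They are 16 genes of DNA replication and of the step from G1 to S phase, and 23 genes that act from G2 to the end of mitosis. They were taken by name from the count tables of whole pregnant mouse uteri, in which each gene identifier was paired with its GRCm38 symbol, and they are 39 of 55421 genes in those tables. The study asked how uteri lacking the MHC class Ib molecule Qa-2 differ from wild-type uteri near the end of pregnancy. RNA of whole uterine tissue at embryonic day E18.5 was sequenced from 2 C57BL/6J mice (WT) and from 2 mice of the strain B6.Cg-H2b3/FlaCmwJ, also called B6.K1 (Qa2-). Females of both strains were mated with males of their own strain. B6.K1 is an H2 congenic strain that arose by intercrossing and backcrossing H2 congenic lines, and not a targeted deletion, so other alleles of the H2 region cannot be told apart from the loss of Qa-2. The labels name each library as a separate uterus, and p-values measure the spread between these 4 uteri.

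Cells copy their DNA once per cycle. In G1 the MCM helicase is loaded onto replication origins by ORC, Cdc6 and Cdt1, and E2F1 and cyclin E then set off S phase, in which Pcna clamps the polymerase to DNA and ribonucleotide reductase supplies deoxynucleotides. Mitosis needs a later group of genes, switched on in G2 by FoxM1 and B-Myb: cyclins A and B with Cdk1, the Aurora and Polo kinases, kinetochore and spindle proteins, and the ubiquitin ligase that works with Cdc20 and Ube2c and ends mitosis by destroying cyclin B. In the late pregnant uterus the muscle layer has mostly stopped dividing and grows by enlargement of its cells, while epithelium, vessels and stroma can still cycle.

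Replication and mitosis genes are known for different promoter elements, E2F sites in the former and CHR elements in the latter, so 4 promoters are shown from members with contrasting levels in the libraries. The sequences come from RefSeq on GRCm38.p6 and run from 250 bases before the transcription start to 50 bases from the start on, 5′ to 3′ on the strand of the gene. Capitals mark matches on either strand to the CHR element TTTGAA, to an E2F site (TTTCCCGC, TTTGGCGC, TTTCGCGC or TTTGCCGC) or to a CCAAT box. The Mcm6 window lies at chr1:128359656-128359955 on the minus strand, the Rrm2 window at chr12:24708004-24708303 on the plus strand, the Ccnb2 window at chr9:70421505-70421804 on the minus strand and the Cdc20 window at chr4:118437294-118437593 on the minus strand.
Mcm6: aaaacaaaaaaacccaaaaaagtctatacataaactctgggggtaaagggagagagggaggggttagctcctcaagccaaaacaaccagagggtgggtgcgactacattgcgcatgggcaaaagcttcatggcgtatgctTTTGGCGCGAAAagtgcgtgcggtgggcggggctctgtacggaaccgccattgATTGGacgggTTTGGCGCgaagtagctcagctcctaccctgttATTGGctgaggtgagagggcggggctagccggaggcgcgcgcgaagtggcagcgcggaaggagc
Rrm2: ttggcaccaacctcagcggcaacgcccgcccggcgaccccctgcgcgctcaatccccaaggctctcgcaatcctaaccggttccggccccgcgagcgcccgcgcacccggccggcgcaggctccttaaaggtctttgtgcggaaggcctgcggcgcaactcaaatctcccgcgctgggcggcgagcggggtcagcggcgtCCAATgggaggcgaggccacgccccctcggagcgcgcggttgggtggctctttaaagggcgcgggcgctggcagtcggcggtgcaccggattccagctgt
Ccnb2: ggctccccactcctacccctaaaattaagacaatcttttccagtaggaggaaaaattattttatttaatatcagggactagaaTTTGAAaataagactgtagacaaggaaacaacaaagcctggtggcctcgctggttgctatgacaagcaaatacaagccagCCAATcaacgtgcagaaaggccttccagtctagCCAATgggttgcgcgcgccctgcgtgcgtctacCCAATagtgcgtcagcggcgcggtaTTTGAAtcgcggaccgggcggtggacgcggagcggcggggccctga
Cdc20: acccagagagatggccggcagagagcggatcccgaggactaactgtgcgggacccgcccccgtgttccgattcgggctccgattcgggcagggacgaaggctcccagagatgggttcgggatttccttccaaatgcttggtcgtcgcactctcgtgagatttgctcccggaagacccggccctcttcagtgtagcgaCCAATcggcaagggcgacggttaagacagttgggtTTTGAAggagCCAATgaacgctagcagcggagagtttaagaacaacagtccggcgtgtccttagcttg

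The Mcm6 window held E2F sites and CCAAT boxes and no CHR element. The longest run of capitals in it, TTTGGCGCGAAA, holds 2 overlapping E2F matches on opposite strands. Rrm2 held a CCAAT box alone, and Ccnb2 and Cdc20 each held CHR and CCAAT letters with no E2F site of these letters. A promoter was matched by symbol for 33 of the 39 members, some with more than 1 start site; Mcm4, Ccne2, Ccna2, Aurkb, Foxm1 and Tpx2 had none in the table. The CHR letters were in 15 of 20 promoters of mitosis members (75%) and in 1 of 15 promoters of replication members (6.67%), against 17.9% of all 32851 promoters. The E2F letters were in 6 of 15 replication promoters (40%) and 1 of 20 mitosis promoters (5%), against 2.26% of all promoters. CCAAT was in 18 of 20 mitosis promoters (90%) and 9 of 15 replication promoters (60%), against 37.4% of all promoters. A match of letters is a description of the window and not evidence that a factor bound there.

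The 4 libraries held 33286390 to 41041299 counts assigned to genes, and the smallest count of any member in any library was 67. Of the genes encoding Qa-2, which are near-identical copies that may share reads, H2-Q6 had 4204 and 1192 counts in WT and 3 and 3 in Qa2- uteri, and H2-Q7 had 6318 and 1251 against 4 and 2, as the labels have it. Levels below are CPM, counts divided by library sizes that were scaled by TMM, and fold changes are WT over Qa2- on the log2 scale from edgeR's quasi-likelihood fit over the 14492 genes with at least 1 CPM in 2 libraries, with adjusted p-values from the Benjamini-Hochberg method over all of them. The markers of the uterine wall were present in all 4 uteri but at unequal levels. Summed CPM of 7 smooth muscle genes was 26745 and 44479 CPM in WT and 23707 and 12721 CPM in Qa2- uteri, and of 7 epithelial genes 3381 and 1832 CPM in WT and 3284 and 7669 CPM in Qa2- uteri. Qa2- replicate 2 was lowest for 7 of the 7 muscle genes. Its high epithelial sum rested on Ltf, lactoferrin, at 1348 and 626 CPM in WT against 414 and 4933 CPM in Qa2- uteri, and without Ltf the epithelial sums were 2033 and 1206 CPM in WT and 2869 and 2736 CPM in Qa2- uteri. In bulk tissue fewer cells of a type and less RNA per cell cannot be told apart, and this holds for every level below.

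All 39 members were above the filter in these uteri. Compared per kilobase of exon, the mean level was highest for Pcna, the polymerase clamp, at 21.5 CPM per kb, followed by Rrm2 at 19.8 and Mcm6 at 7.92. The most abundant mitosis gene per kilobase was Cdc20 at 6.86 CPM per kb. The lowest were Cdc6 at 0.497, Cenpf at 0.706 and Bub1 at 0.884 CPM per kb. The median level of the replication members was 4.17 and 3.58 CPM per kb in the WT libraries and 3.69 and 4.36 in the Qa2- libraries. For the mitosis members it was 2.49 and 2.06 in WT and 2.09 and 1.39 CPM per kb in Qa2- uteri, so replication genes stood above mitosis genes in every library, and by the widest ratio in Qa2- replicate 2.

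**Figure D1:**
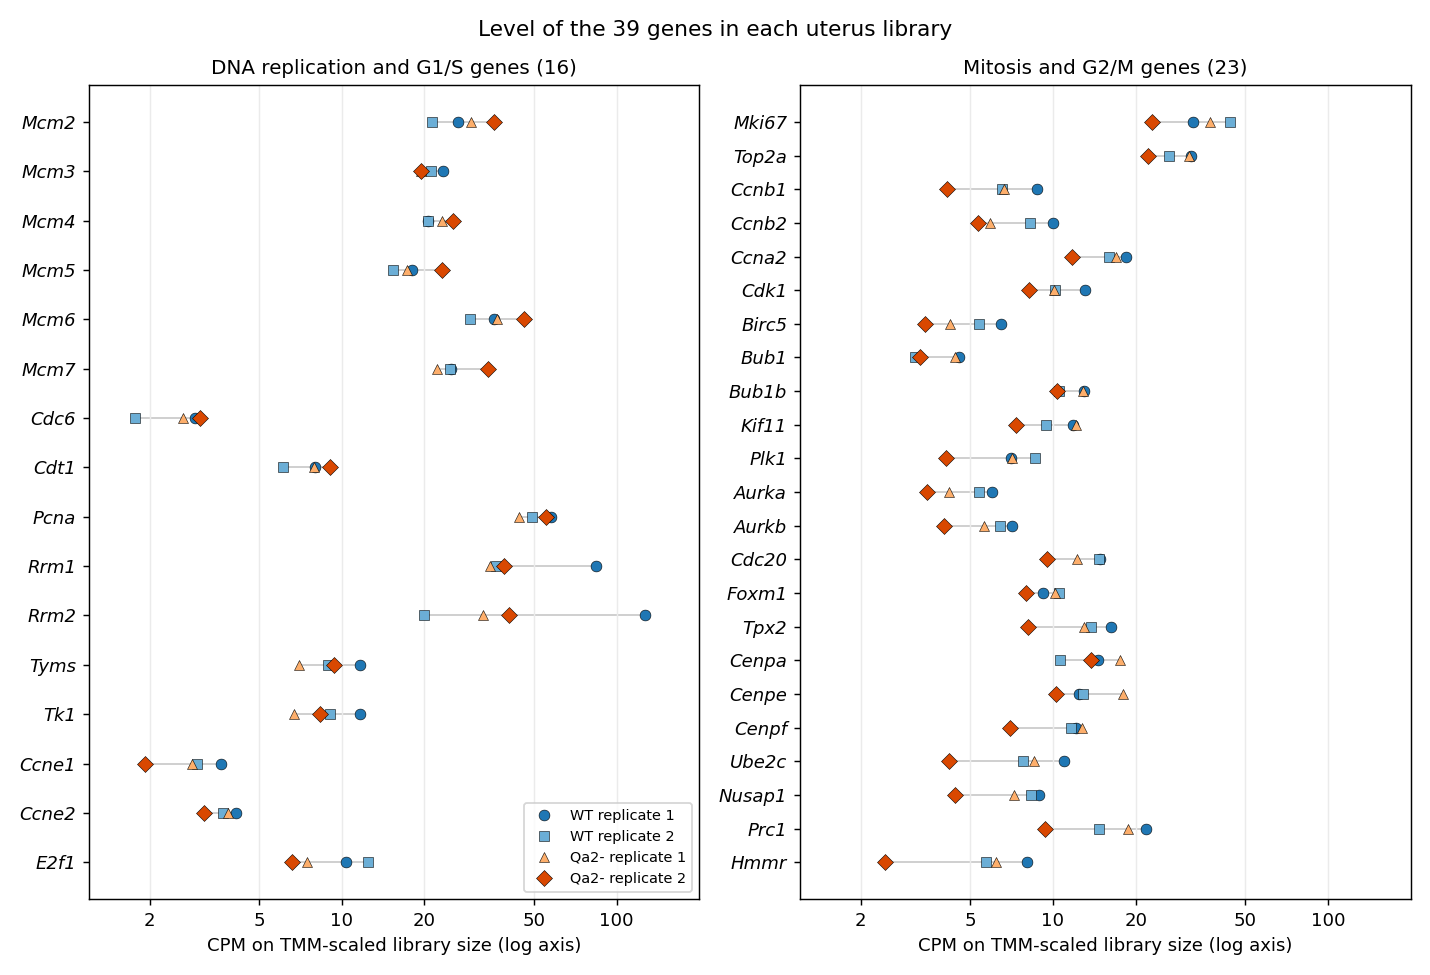
Level of each of the 39 members in each library, in CPM on a log axis, with the replication and the mitosis genes in separate panels and 1 point per library (2 WT, 2 Qa2-). The point of WT replicate 1 stands far to the right for Rrm2 (127 CPM) and Rrm1 (84.2 CPM), and that of Qa2- replicate 2 lies lowest for 21 of the 23 mitosis genes.

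No member differed between WT and Qa2- uteri at an adjusted p below 0.05. By edgeR 0 of 39 were called, as were 0% of all genes in either direction, and DESeq2, which called 2.79% of genes higher in WT and 2.04% higher in Qa2- uteri, called 0 of 39 as well. The smallest adjusted p of a member was 0.296 by edgeR and 0.192 by DESeq2. At an unadjusted p below 0.05, edgeR gave 2 of 39 members (5.13%), both with the higher value in WT, against 15.2% of all genes, of which 8.09% were higher in WT and 7.09% in Qa2- uteri. The pair was E2f1 and Ccnb2. Under library totals it was instead E2f1 (edgeR unadjusted p = 0.0443) and Mcm2, with Mcm2 higher in Qa2- uteri (edgeR unadjusted p = 0.0473), and Ccnb2 was lost (edgeR unadjusted p = 0.0588). With 2 animals against 2 an exact permutation test cannot go below a two-sided p of 0.333.

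The log2 fold change was above 0 for 30 members and below 0 for 9, with a median of 0.33 against 0.012 for all genes tested. The replication members had a median of 0.13 (9 above 0, 7 below) and the mitosis members 0.39 (21 above 0, 2 below). Both WT values exceeded both Qa2- values for 12 members (30.8%, against 25.4% of all genes tested), namely Mcm3, Tk1, Ccne1, E2f1, Ccnb2, Cdk1, Birc5, Aurka, Aurkb, Cdc20, Tpx2 and Nusap1. Both Qa2- values exceeded both WT values for Mcm2, Mcm4 and Mcm6 (7.69%, against 24.5%). The share higher in WT was thus close to that of all genes and the share higher in Qa2- below it. Without Qa2- replicate 2 the median of the mitosis members was 0.13, and without WT replicate 1 that of the replication members was -0.13.

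**Figure D2:**
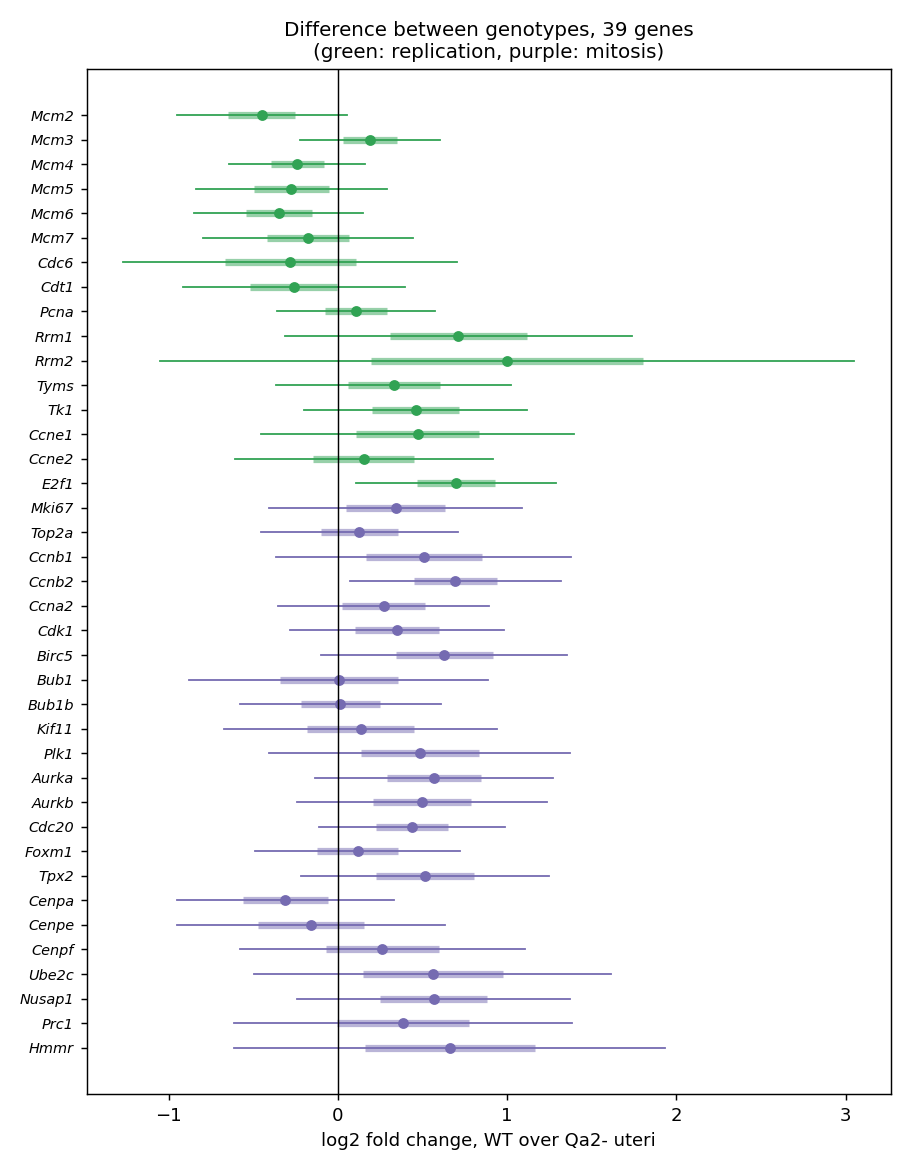
Log2 fold change (WT over Qa2-) of each member from edgeR's quasi-likelihood fit, with the standard error as a thick bar and the 95% interval as a thin line. The interval excludes 0 for E2f1 and Ccnb2 alone, and 5 of the 6 MCM genes lie below 0.

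Of the 6 subunits of the MCM helicase, 5 had a log2 fold change below 0, and 3 of the 6 had both Qa2- values above both WT values (50%, against 24.5% of all genes). By edgeR 0 of the 6 had an unadjusted p below 0.05, and DESeq2 called 0. Mcm2 (chr6:88883474-88898780) was at 26.6 and 21.4 CPM in the WT libraries and 29.6 and 35.9 CPM in the Qa2- libraries. The groups did not overlap, and Qa2- replicate 2 was the highest. Its log2 fold change was -0.45 (SE 0.20, 95% interval -0.95 to 0.052, adjusted p = 0.359 by edgeR). Mcm6 (chr1:128331590-128359664), whose promoter is shown above with its E2F sites, was at 35.7 and 29.3 CPM in the WT libraries and 36.8 and 46.1 CPM in the Qa2- libraries. These groups did not overlap either, although WT replicate 1 and Qa2- replicate 1 lay close together. The log2 fold change of Mcm6 was -0.35 (SE 0.20, 95% interval -0.85 to 0.15).

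Mcm4 was at 20.6 and 20.7 CPM in WT against 23.2 and 25.5 CPM in Qa2- uteri, a log2 fold change of -0.24 (SE 0.16). Both WT animals were nearly alike, and both Qa2- animals lay above them. Mcm5 had 18.0 and 15.4 CPM in WT against 17.2 and 23.2 CPM in Qa2- uteri, and its groups overlapped, with the highest value again in Qa2- replicate 2. Mcm7 had 25.0 and 24.7 CPM in WT against 22.1 and 33.99 CPM in Qa2- uteri, where Qa2- replicate 1 was the lowest library and Qa2- replicate 2 the highest. Its log2 fold change of -0.18 became 0.16 without Qa2- replicate 2. Mcm3 alone of the subunits was higher in WT, at 23.3 and 21.2 CPM in WT against 19.5 and 19.4 CPM in Qa2- uteri, a log2 fold change of 0.19 (SE 0.16). Qa2- replicate 2 thus held the highest level of 5 of the 6 subunits (83.3%), against 28.5% of all genes tested. Per kilobase the subunits stood at 4.08 to 7.92 CPM per kb on average, from Mcm2 to Mcm6.

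Both members that load the helicase, Cdt1 and Cdc6, were highest in Qa2- replicate 2. Cdt1, which brings the MCM complex to origins, was at 8.02 and 6.12 CPM in WT against 7.92 and 9.03 CPM in Qa2- uteri. Cdc6, the ATPase that works with it, was the member with the fewest counts, at 2.91 and 1.78 CPM in WT against 2.65 and 3.06 CPM in Qa2- uteri. Both were lowest in WT replicate 2, with overlapping groups and log2 fold changes of -0.26 (SE 0.26) and -0.28 (SE 0.39). Pcna was at 57.5 and 49.4 CPM in WT against 44.2 and 55.2 CPM in Qa2- uteri. The groups overlapped and the log2 fold change was 0.10 (SE 0.18, 95% interval -0.36 to 0.57).

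The genes of deoxynucleotide supply had their highest values in WT replicate 1. Rrm2 (chr12:24708241-24714146), the regulated small subunit of ribonucleotide reductase, was at 127 and 19.9 CPM in the WT libraries and 32.7 and 40.7 CPM in the Qa2- libraries. WT replicate 1 held 3.11 times the next highest library, and WT replicate 2 was the lowest of the 4. WT replicate 1 stood at least that far above the next library for 74 genes (0.511% of those tested). The log2 fold change of Rrm2 was 1.0, with the largest error of any member (SE 0.81, 95% interval -1.05 to 3.05). Without WT replicate 1 the log2 fold change was -0.90, and without WT replicate 2 it was 1.79 (adjusted p = 0.0529 by edgeR).

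Rrm1 (chr7:102441695-102469771), the large subunit, was at 84.2 and 36.3 CPM in the WT libraries and 34.5 and 39.1 CPM in the Qa2- libraries. WT replicate 1 was again apart, at 2.16 times the next library, a lead seen for 130 genes (0.897%), and the other 3 libraries lay close together. The log2 fold change of Rrm1 was 0.71 (SE 0.40) and became -0.043 without WT replicate 1. Thymidylate synthase, Tyms, had 11.6 and 8.91 CPM in WT against 6.99 and 9.35 CPM in Qa2- uteri, with overlapping groups. Thymidine kinase, Tk1, had 11.7 and 9.04 CPM in WT against 6.71 and 8.35 CPM in Qa2- uteri, without overlap, and a log2 fold change of 0.46 (SE 0.26). WT replicate 1 was highest for both, though by much less than for the reductase.

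The same library was high in some genes of 2 other cell populations, picked after values had been seen. Summed CPM of 6 decidual stroma genes was 319.6 and 34.4 CPM in WT and 44.5 and 51.3 CPM in Qa2- uteri, and Cyp11a1, the enzyme that starts progesterone synthesis, was at 179.8 and 2.07 CPM in WT against 8.0 and 6.63 CPM in Qa2- uteri. Summed CPM of 9 granzyme, perforin and granule genes of cytotoxic lymphocytes was 1852 and 22.6 CPM in WT and 11.9 and 66.6 CPM in Qa2- uteri. The decidual sum in WT replicate 1 was mostly Cyp11a1 and Prl8a2, a decidual prolactin, at 109 and 2.04 CPM in WT against 3.92 and 13.3 CPM in Qa2- uteri. Of the other decidual genes, Bmp2 was lowest in WT replicate 1, Wnt4 was highest in Qa2- replicate 2 and Prl3c1 was at 0 counts in every library. Bmp8a was highest in WT replicate 1, at 8.37 and 3.05 CPM in WT against 5.66 and 4.49 CPM in Qa2- uteri. Of the granule genes 7 of 9 were highest in WT replicate 1, and Gzma and Nkg7 were not. The part of these cells in the Rrm1 and Rrm2 values was not tested.

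Of the genes that open S phase, E2f1 (chr2:154559407-154569892), the transcription factor that switches on replication genes, was at 10.3 and 12.5 CPM in the WT libraries and 7.47 and 6.58 CPM in the Qa2- libraries. The groups did not overlap, with means of 11.4 ± 1.5 CPM in WT and 7.02 ± 0.630 CPM in Qa2- uteri (SD, n = 2 each). Its log2 fold change was 0.70 (SE 0.23, 95% interval 0.11 to 1.29, edgeR unadjusted p = 0.0284, adjusted p = 0.296). Cyclin E1, Ccne1, had 3.64 and 2.97 CPM in WT against 2.85 and 1.92 CPM in Qa2- uteri, a log2 fold change of 0.47 (SE 0.36). Cyclin E2, Ccne2, had 4.11 and 3.69 CPM in WT against 3.86 and 3.14 CPM in Qa2- uteri, a log2 fold change of 0.15 (SE 0.30). Both cyclins E were lowest in Qa2- replicate 2, as was Mcm3 but none of the other MCM genes, and the groups overlapped for Ccne2.

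Among the mitosis genes, the cyclins and their kinase had higher mean values in WT. Ccnb2 (chr9:70407692-70421547), a cyclin B whose promoter is shown above with its CHR elements, was at 9.99 and 8.24 CPM in the WT libraries and 5.92 and 5.35 CPM in the Qa2- libraries. The groups did not overlap, with means of 9.12 ± 1.23 CPM in WT and 5.63 ± 0.403 CPM in Qa2- uteri (SD, n = 2 each). Its log2 fold change was 0.69 (SE 0.25, 95% interval 0.071 to 1.32, edgeR unadjusted p = 0.0351, adjusted p = 0.308). Ccnb1, another cyclin B, was at 8.74 and 6.52 CPM in WT against 6.62 and 4.12 CPM in Qa2- uteri, with WT replicate 2 just under Qa2- replicate 1. Cdk1, the kinase that cyclin B activates, was at 13.1 and 10.2 CPM in WT against 10.1 and 8.21 CPM in Qa2- uteri. WT replicate 2 and Qa2- replicate 1 were nearly equal for Cdk1, so its groups were separated by a margin smaller than the gap between the WT animals. Cyclin A2, Ccna2, had overlapping groups and a log2 fold change of 0.27 (SE 0.25).

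Markers used to count dividing cells gave no separation of the groups. Mki67, which encodes the proliferation antigen Ki-67, was at 32.4 and 44.1 CPM in the WT libraries and 37.3 and 23.01 CPM in the Qa2- libraries. WT replicate 2 was highest and Qa2- replicate 2 lowest, while WT replicate 1 was below Qa2- replicate 1. Top2a, the topoisomerase that untangles sister chromatids, was at 31.8 and 26.5 CPM in WT against 31.3 and 22.1 CPM in Qa2- uteri. Their log2 fold changes were 0.34 (SE 0.29, 95% interval -0.41 to 1.09) and 0.13 (SE 0.23, 95% interval -0.45 to 0.71). Foxm1, the factor that switches on mitosis genes, was at 9.22 and 10.5 CPM in WT against 10.2 and 8.01 CPM in Qa2- uteri, a log2 fold change of 0.12 (SE 0.24).

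The kinases and exit factors of mitosis were as follows. Aurkb, the kinase of the chromosomal passenger complex, was at 7.12 and 6.44 CPM in WT against 5.61 and 4.0 CPM in Qa2- uteri, and its partner Birc5, survivin, at 6.45 and 5.38 CPM in WT against 4.23 and 3.43 CPM in Qa2- uteri. Aurka, which builds spindle poles, was at 5.98 and 5.38 CPM in WT against 4.17 and 3.49 CPM in Qa2- uteri, and Tpx2, which activates it, at 16.3 and 13.8 CPM in WT against 13.0 and 8.12 CPM in Qa2- uteri. The groups did not overlap for these 4 genes, as for 25.4% of all genes in that direction, and Qa2- replicate 2 was lowest for each, as for 28.5% of all genes. Their log2 fold changes were 0.50 (SE 0.29) for Aurkb, 0.63 (SE 0.29) for Birc5, 0.57 (SE 0.28) for Aurka and 0.51 (SE 0.29) for Tpx2.

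Cdc20 (chr4:118432901-118437352), the activator of the ligase that ends mitosis, was at 14.8 and 14.7 CPM in the WT libraries and 12.2 and 9.55 CPM in the Qa2- libraries. Both WT animals were nearly equal and above both Qa2- animals, with a log2 fold change of 0.44 (SE 0.22, 95% interval -0.11 to 0.99). Ube2c, the ubiquitin-conjugating enzyme that works with the same ligase, was at 10.9 and 7.77 CPM in WT against 8.51 and 4.17 CPM in Qa2- uteri. Its groups overlapped, and Qa2- replicate 2 had 2.62-fold less than WT replicate 1. Plk1, the Polo kinase, overlapped as well, with a log2 fold change of 0.48 (SE 0.35).

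The genes of the spindle and the kinetochore spanned both directions. Hmmr, a spindle protein that binds microtubules, was at 8.05 and 5.70 CPM in WT against 6.23 and 2.46 CPM in Qa2- uteri, the widest spread of any mitosis gene, with its highest value 3.27 times its lowest. Its log2 fold change of 0.66 (SE 0.50) was 0.14 without Qa2- replicate 2. Prc1, which bundles the central spindle, and Nusap1, which holds microtubules to chromatin, had log2 fold changes of 0.39 (SE 0.39) and 0.57 (SE 0.32). The spindle motor Kif11 had 0.13 (SE 0.32) and the kinetochore gene Cenpf 0.26 (SE 0.33). Cenpa, the histone H3 variant of centromeres, was at 14.6 and 10.6 CPM in WT against 17.5 and 13.8 CPM in Qa2- uteri. It was the mitosis gene with the most negative log2 fold change, -0.31 (SE 0.25), and Qa2- replicate 1 was its highest library. Cenpe, a kinetochore motor, followed with -0.16 (SE 0.31). The log2 fold changes of Prc1, Kif11, Cenpf and Cenpe each changed sign when a single library was left out.

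The spindle checkpoint kinases were the members whose group means lay closest together. Bub1 was at 4.56 and 3.15 CPM in WT against 4.40 and 3.29 CPM in Qa2- uteri and Bub1b at 12.9 and 10.5 CPM in WT against 12.8 and 10.3 CPM in Qa2- uteri. In each group replicate 1 was above replicate 2, and the fold changes were 0.0061 (95% interval -0.88 to 0.89) and 0.014 (95% interval -0.58 to 0.61) on the log2 scale. The direction of either is not settled, since Bub1 fell below 0 under DESeq2 and under library totals without scaling, and Bub1b under library totals.

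Across the 4 libraries, the MCM genes and the mitosis genes parted in 1 animal. The level of each gene was set against its own mean over the libraries on the log2 scale and averaged over the set. For the 6 MCM genes this gave -0.024 and -0.19 in WT and -0.044 and 0.25 in Qa2- uteri. All 16 replication genes together gave 0.27 and -0.18 in WT and -0.13 and 0.039 in Qa2- uteri, so WT replicate 1 was highest. Of these 16 genes, 7 were highest and 4 lowest in Qa2- replicate 2. For the 23 mitosis genes it gave 0.28 and 0.078 in WT and 0.12 and -0.48 in Qa2- uteri. The ratio of MCM to mitosis genes, relative to its mean over the libraries, was 0.808 and 0.833 in WT and 0.895 in Qa2- replicate 1, but 1.66 in Qa2- replicate 2. On the log2 scale, the 16 replication genes less the mitosis genes gave -0.015 and -0.255 in WT and -0.246 and 0.516 in Qa2- uteri. Qa2- replicate 2 thus stood apart for all 16 as a set too. The MCM genes alone were not a planned set. Of the 23 mitosis genes, 21 (91.3%) were lowest in Qa2- replicate 2, against 28.5% of all genes tested, and Bub1 and Cenpa were not. WT replicate 1 was the highest library for 16 of them (69.6%, against 24.0%). Under upper-quartile scaling, DESeq2 size factors and library totals, 20 to 21 of the 23 were lowest in Qa2- replicate 2. That library was lowest for 22.4% to 28.5% of all genes under these scalings. It was highest for 5 of the 6 MCM genes under each, against 28.3% to 37.2% of all genes. WT replicate 1 was highest for 13 of the 23 mitosis genes under library totals, against 3006 of 14492 genes. The animals of the Qa2- group thus stood further apart in the ratio of MCM to mitosis genes than the WT group did from Qa2- replicate 1.

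**Figure D3:**
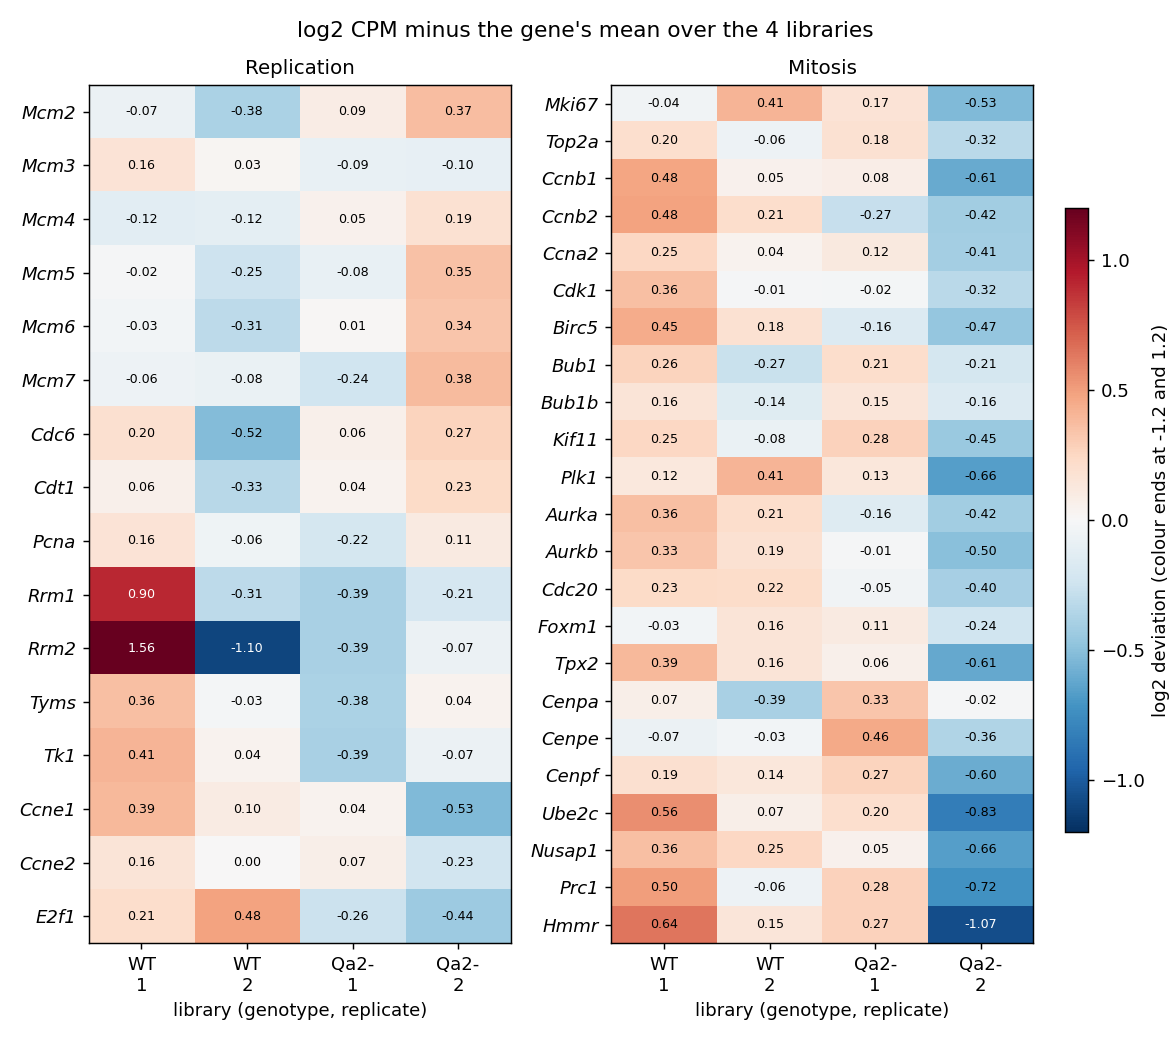
Heat map of the log2 level of each member in each library, relative to the mean of that gene over the 4 libraries. Replication genes are in the left panel and mitosis genes in the right panel. The column of Qa2- replicate 2 is positive for the MCM genes other than Mcm3 and negative for all 23 mitosis genes, though barely so for Cenpa (-0.016).

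Tissue markers also differed between the libraries, in orders that matched those of the members in part. Qa2- replicate 2 was lowest for the smooth muscle genes given earlier, as for the mitosis genes, but WT replicate 2 was highest for muscle and WT replicate 1 for most mitosis genes. Of the epithelial genes it was highest for 4 of 7, Ltf among them, and Qa2- replicate 1 for the other 3, and without Ltf their sum was slightly higher in Qa2- replicate 1. The log2 fold change was positive for 7 of 7 muscle genes and negative for 7 of 7 epithelial genes. Of the muscle genes 5 did not overlap, with WT higher (71.4%, against 25.4% of all genes), and DESeq2 called Des and Tagln higher in WT. Of the epithelial genes 5 did not overlap, with Qa2- higher (71.4%, against 24.5%), and DESeq2 called Krt19 higher in Qa2- uteri. The 5 endothelial genes summed to 949 and 824 CPM in WT and 419 and 397 CPM in Qa2- uteri. For all 5 the lower WT value exceeded the higher Qa2- value (100%, against 25.4% of all genes). All had an edgeR unadjusted p below 0.05 (against 15.2% of all genes) with 0 below 0.05 after adjustment, and DESeq2 called 4 of them higher in WT. The 12 leucocyte genes summed to 231 and 360.0 CPM in WT and 291 and 206 CPM in Qa2- uteri. Most of each sum was Csf1r, at 133 and 217 CPM in WT against 192 and 114 CPM in Qa2- uteri. Of the 7 leucocyte genes tested, 6 had a log2 fold change above 0 and 1 below. The latter was Ptprc, which encodes CD45, at 33.5 and 38.7 CPM in WT against 44.5 and 45.9 CPM in Qa2- uteri. The 4 red cell genes above the filter, Alas2 among them, summed to 334 and 645 CPM in WT and 104.8 and 69.8 CPM in Qa2- uteri. All 4 were lowest in Qa2- replicate 2 (against 28.5% of all genes) and none overlapped between groups (against 25.4% in that direction). Of the 4, 3 had an edgeR unadjusted p below 0.05 (against 15.2%) and were called higher in WT by DESeq2 (against 2.79%). The 6 genes that identify uterine tissue summed to 860.0 and 1042 CPM in WT and 916 and 872 CPM in Qa2- uteri. Members of that list went in opposing directions: Oxtr, the oxytocin receptor, had a log2 fold change of 1.76 (SE 0.35) and was called by DESeq2, Hand2 had 0.63 (SE 0.24), Hoxa10 0.56 (SE 0.18) and Esr1, the oestrogen receptor, -0.60 (SE 0.22), each with an edgeR unadjusted p below 0.05. Trophoblast genes summed to 1.35 and 25.9 CPM in WT and 4.25 and 1.2 CPM in Qa2- uteri, with Gcm1, Hand1, Prl3d1 and Ctsq at 0. Yolk sac genes summed to 9.07 and 48.0 CPM in WT and 485 and 32.9 CPM in Qa2- uteri. The part of these cell types in the values of the members was not tested.

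**Figure D4:**
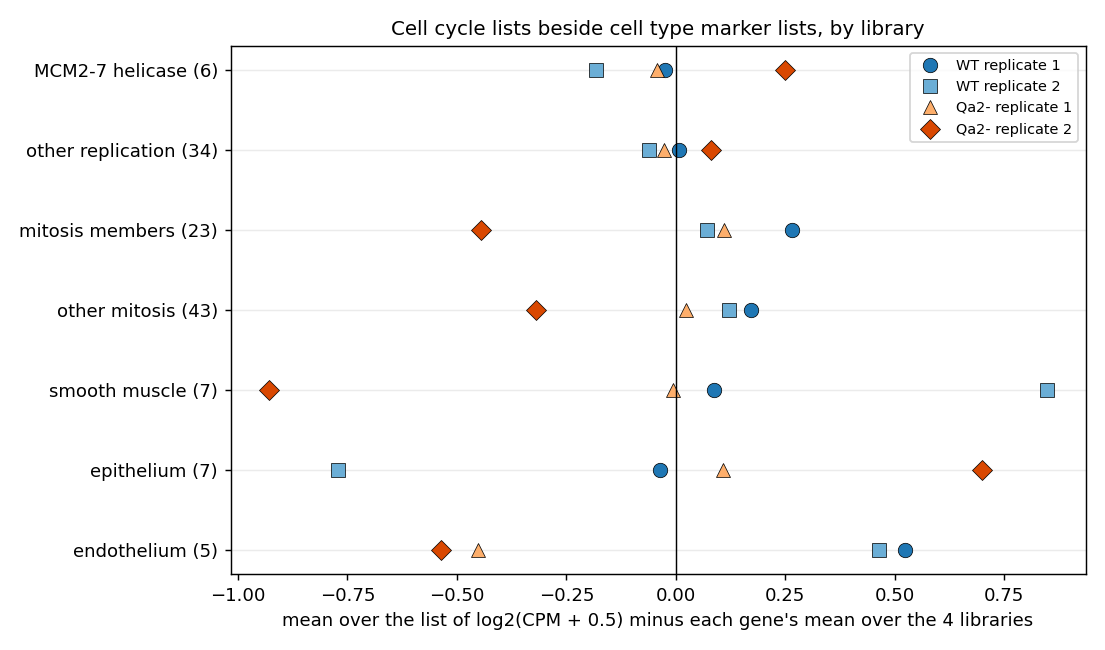
Mean log2 level of each gene list in each library, relative to the mean over the 4 libraries (1 point per library, on log2 of CPM plus 0.5). The lists are the MCM genes, the mitosis members, further replication and mitosis genes, and smooth muscle, epithelial and endothelial markers. The replication members other than the MCM genes are not drawn. The mitosis lists and the smooth muscle list are both lowest in Qa2- replicate 2, and the epithelial list, Ltf included, is highest there.

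Further genes of the same pathways were read from lists of their known members. The 34 other replication genes, which include the origin recognition complex, the polymerases, the replisome and the clamp loader, had log2 fold changes with a median of -0.020, 15 of them above 0 and 19 below. By edgeR 0 passed at an adjusted p below 0.05, as by DESeq2, and 1 (2.94%, against 15.2% of all genes) had an unadjusted p below 0.05, Cdc7, the kinase that fires origins, with -0.80 (SE 0.23) at 12.9 and 18.2 CPM in WT against 29.2 and 25.1 CPM in Qa2- uteri. The lowest value was that of Orc1, a subunit of the origin recognition complex, with -0.95 (SE 0.38) at 1.62 and 1.25 CPM in WT against 3.21 and 2.34 CPM in Qa2- uteri. Cdc45, which joins the MCM complex in the active helicase, and Pola2, a subunit of the priming polymerase, were at the other end with 0.41 (SE 0.28) and 0.37 (SE 0.22). For 11 of the 34 genes (32.4%) Qa2- replicate 2 was the highest library, close to the 28.5% of all genes, and under library totals it was so for 18 (52.9%), against 37.2%.

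For the 43 other mitosis genes the median was 0.29 on the log2 scale, 39 lay above 0 and 4 below, and 33 of them (76.7%, against 28.5% of all genes) were lowest in Qa2- replicate 2. Both WT values exceeded both Qa2- values for 21 (48.8%, against 25.4% of all genes), and the reverse held for 0 (against 24.5%). By edgeR and by DESeq2 0 genes of the list passed at an adjusted p below 0.05, and 2 (4.65%, against 15.2% of all genes) had an edgeR unadjusted p below 0.05. These were Spc24, a subunit of the kinetochore's Ndc80 complex, with 1.11 (SE 0.35) at 4.83 and 4.0 CPM in WT against 1.66 and 2.43 CPM in Qa2- uteri, and Cks2, a small subunit of cyclin-dependent kinases, with 0.69 (SE 0.25) at 8.30 and 7.42 CPM in WT against 5.30 and 4.46 CPM in Qa2- uteri, the latter named after its value was seen. Sgo1, which protects centromeric cohesion, had the second highest value, 0.76 (SE 0.33). The lowest were those of the kinesin Kif20b with -0.090 (SE 0.27) and the checkpoint gene Mad2l1 with -0.071 (SE 0.25).

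Genes that act before S phase gave a mixed picture. The 8 genes of entry into the cycle, D cyclins and their kinases among them, had a median of -0.16, and Mycn, a MYC family transcription factor, stood at 31.8 and 17.5 CPM in WT against 37.8 and 90.8 CPM in Qa2- uteri. Qa2- replicate 2 was far above the other 3 libraries for Mycn, and its log2 fold change was -1.38 (SE 0.50, edgeR unadjusted p = 0.0377, adjusted p = 0.312). Myc had -0.32 (SE 0.19), Cdk4, a kinase of the D cyclins, 0.0024 (SE 0.20), and Ccnd3, cyclin D3, 0.37 (SE 0.21). Of the 14 brakes of the cycle, 13 were tested, with a median of 0.11, and neither list held a gene called by edgeR or DESeq2 at an adjusted p below 0.05. Cdkn1a, the p53 target p21 that inhibits cyclin-dependent kinases, was at 142 and 87.0 CPM in WT against 67.7 and 46.8 CPM in Qa2- uteri. Its groups did not overlap, and the log2 fold change was 1.0 (SE 0.31, edgeR unadjusted p = 0.0229, adjusted p = 0.286). Cdkn2c, an inhibitor of the cyclin D kinases, followed with 0.65 (SE 0.24). Cdkn1c, an inhibitor related to p21, had -0.49 (SE 0.41), Cdkn2b, an inhibitor of the cyclin D kinases as well, had -0.55 (SE 0.50), and Cdkn2a was below the filter at 11 and 17 counts in WT and 2 and 1 in Qa2- uteri.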

How the data were processed

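The authors deposited 1 table of raw counts per gene for each uterus. Their processing notes name STAR 2.7.3a, featureCounts 2.0.0 and GRCm38.p6, and per the file headers read pairs were counted by strand over exons. The exon length column of the same deposited tables gave levels per kilobase. Symbols were found for 55154 of the 55421 identifiers. Annotated pseudogenes of Pcna, Ccnb1, Ccnb2 and Tyms had at most 9 counts in a library.

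Counts were tested with edgeR 4.0.16 in R 4.3.3 (TMM, quasi-likelihood test, no covariate). DESeq2 1.42.0, other scalings and filters, a replicate block and leaving out each library were alternatives. The scripts were tested on simulated data. The members, lists and tests were chosen with earlier results of these data known, and the decidual and cytotoxic lists after their values were seen. The named genes were all members, the H2-Q6 and H2-Q7 check and, of each further cell cycle list, the 2 highest and 2 lowest log2 fold changes. Cks2, Cdkn2a and the genes named from the cell type lists are outside this rule and were chosen after their values were seen. Cell type lists are given as sums, and 1 marker gene is not reported here. Genes of like pattern were not sought, since 4 libraries are too few for a correlation. Replicates differed by more than counting noise, with a chi-square per gene of 240.8 in WT and 150.9 in Qa2-. A floor of 3 counts was 0.0731 to 0.0901 CPM.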

Additional observations from a re-analysis of the deposited data

How the results depend on the processing

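Of the 39 members, 26 kept the sign of their log2 fold change under every alternative that was run, and 0 members were called at an adjusted p below 0.05 under any of them. Among all genes, DESeq2 called 404 higher in WT and 296 higher in Qa2- uteri, the fit without a filter on low counts called 47 and 14, and edgeR with the filter called 0 and 0. With library totals in place of TMM, 5 members rather than 3 had both Qa2- values above both WT values and 8 rather than 12 the reverse, and the shares of all genes moved from 25.4% higher in WT and 24.5% higher in Qa2- uteri to 18.7% and 32.0%. Bub1 turned to -0.00013 under DESeq2 and to -0.083 under library totals, and Bub1b to -0.077 under library totals.

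Leaving out 1 library in turn leaves a group of 1 animal, which is assumed to vary as the other group does. The median log2 fold change of the members then ranged from 0.099 to 0.54, that of the replication members from -0.13 to 0.22 and that of the mitosis members from 0.13 to 0.73. Members with an unadjusted p below 0.05 ranged from 0 (without Qa2- replicate 2) to 4 (without Qa2- replicate 1), beside 5.46% and 12.2% of all genes. Members without overlap ranged from 14 to 26 for higher in WT and from 3 to 10 for higher in Qa2- uteri, where a lone animal makes separation easier (36.5% to 38.1% and 34.5% to 39.7% of all genes). All genes called higher in WT ranged from 0 to 45 (without WT replicate 2), and higher in Qa2- uteri from 0 to 0. The log2 fold change ranged from -0.90 to 1.79 for Rrm2, -0.043 to 1.19 for Rrm1, -0.051 to 0.27 for Pcna, -0.46 to 0.16 for Mcm7, -0.71 to 0.028 for Cdc6, -0.11 to 0.40 for Top2a, -0.31 to 0.25 for Bub1, -0.17 to 0.18 for Bub1b, -0.19 to 0.54 for Kif11, -0.51 to 0.30 for Cenpe, -0.11 to 0.76 for Cenpf, -0.050 to 0.30 for Foxm1 and -0.036 to 0.97 for Prc1. Other than the lone animal, the cause was not tested.

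Same-numbered uteri share only a number, and their deviations from the group means correlated at -0.39. With the replicate block, 2 genes were called higher in WT, 0 members had an unadjusted p below 0.05 (1331 of all genes against 2199 without it), Bub1 was -0.0029 and Rrm2 fell from 1.0 to 0.47. A crossed pairing, an alternative chosen after seeing the data, gave 4 members with an unadjusted p below 0.05 (3625 of all genes), -0.0024 for Bub1 and 0.48 for Rrm2. Each member had at least 67 counts in every library, and each group held 2 animals.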

Other observations

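The same promoter letters were counted in the further cell cycle lists. The CHR letters TTTGAA were in 27 of 38 promoters of the other mitosis genes (71.1%) and in 7 of 32 promoters of the other replication genes (21.9%), against 17.9% of all promoters. The E2F letters were in 10 of 32 promoters of the other replication genes (31.2%) and in 3 of 38 of the other mitosis genes (7.89%), against 2.26% of all promoters. CCAAT boxes were in 16 of 32 (50%) and 25 of 38 (65.8%), against 37.4%. These are counts of letters in windows of equal length, and no binding was measured in these uteri.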
